A study of Homo sapiens with 24 samples.

Results

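The 6 libraries that profiled H3K9me3, of 24 libraries in the series, were compared here: 3 from control cells and 3 from cells with a knockdown of ZNF436. The libraries were chosen by the mark in their titles, and all 153244 regions counted in them were used. The cells were ventricular-like cardiomyocytes derived from H9, a human embryonic stem cell line, and were taken at day 15 of differentiation with a commercial kit. Both groups shared the line, the differentiation and the assay, and differed by title only in the knockdown (ctrl or ZNF436kd). Genes are named from their known hg19 positions. How ZNF436 was knocked down, what the control cells received and whether replicates came from separate differentiations are not stated in the labels; a p-value therefore reflects variation among these 6 libraries, part of which may be technical. The other 18 libraries, for H3K4me3, H3K4me1 and H3K27ac in the same 2 groups, served to describe the regions, to check the cells' label and to compare those marks at the regions named.

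H3K9me3, trimethylation of lysine 9 of histone H3, marks silenced heterochromatin. Zinc finger proteins of the KRAB class, to which ZNF436 belongs, bind DNA at particular sequences, often in transposons, and recruit TRIM28 and the methyltransferase SETDB1, which writes the mark. The genes of this class lie in clusters, many on chromosome 19, that themselves carry broad H3K9me3. The other marks stand for other states: H3K4me3 for active promoters, H3K4me1 for enhancers and H3K27ac for active promoters and enhancers. CUT&Tag measures a mark by directing a transposase to it with an antibody, so that reads pile up where the mark is.

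Total counts were between 2143594 and 2748839 in the control libraries and between 2103185 and 2880412 in the knockdown libraries. Regions with no read made up 38.2%, 33.4% and 36.2% of all regions in the controls and 37.1%, 25.5% and 27.5% in the knockdown libraries, so the reads of knockdown replicates 2 and 3 were spread over more regions. The 100 regions with the most counts held between 29.3% and 35.4% of each library. At least 4.10% of every library came from 1 region beside the centromere of chromosome 1 (hg19, chr1:121478309-121485434). It was high in the other marks too, with control means of 303 CPM for H3K4me3, 2235 CPM for H3K4me1 and 5907 CPM for H3K27ac. A region on chromosome Y (chrY:13445467-13490223) held between 1.49% and 1.86% of each library. How far the counts at such regions reflect the mark was not tested. The label of the cells was checked at gene starts: all 7 cardiomyocyte genes examined, TNNT2 and NKX2-5 among them, had an H3K4me3 region there, with control means between 15.7 and 229 CPM. No region was listed at the starts of POU5F1, NANOG, SOX1, ALB, CDH5 or PTPRC, which mark pluripotent, neural, liver, endothelial and blood cells, while PAX6 and AFP, of neural and liver cells, had control means of 7.42 and 2.11 CPM. In knockdown, H3K4me3 at PAX6 was 15.8 CPM, with no overlap between the groups, and that at AFP 2.18 CPM; COL1A1, a fibroblast gene, had 73.8 CPM in controls and 71.3 CPM in knockdown. All 7 cardiomyocyte genes had a higher mean in knockdown, and their summed level was 409, 191 and 805 CPM in the controls and 825, 674 and 745 CPM in the knockdown libraries. The groups overlapped at 6 of the 7, and none of the marker genes passed (edgeR adjusted p between 0.678 and 0.925 for the cardiomyocyte genes, 0.116 at PAX6). The part of these differences in the H3K9me3 results was not tested. Levels here are CPM, counts scaled so that libraries of different size can be compared, and fold changes are knockdown over control. As these are bulk samples, fewer marked cells and less mark per cell cannot be told apart.

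At the targeted gene, H3K4me3 and H3K27ac fell. The region that covers ZNF436 (hg19, chr1:23686304-23698054, 11751 bp, with the gene's start) had H3K4me3 of 153, 173 and 161 CPM in the controls and 11.6, 10.1 and 9.59 CPM in the knockdown libraries, a log2 fold change of -3.96 (edgeR adjusted p = 1.41e-14). H3K27ac there averaged 115 ± 17.9 CPM in the controls and 27.5 ± 6.43 CPM after knockdown (SD, n = 3 each; edgeR adjusted p = 0.00631). H3K9me3 was 169, 153 and 131 CPM in the controls and 229, 263 and 256 CPM in the knockdown libraries. The 3 knockdown libraries thus all lay above the 3 controls, with a log2 fold change of 0.73 (SE 0.15), but edgeR's adjusted p of 0.0648 missed the threshold of 0.05. Under 6 of 15 alternative settings this region passed, and its adjusted p ran from 0.000920 with DESeq2 to 0.752 with no filter on low counts. The region thus already held H3K9me3 counts in control cells. Over the 6 libraries, knockdown included, it ranked between the densest 1% and 5% of all regions.

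The next region upstream of ZNF436 gained the mark. It starts 1068 bp beyond the end of the ZNF436 region (hg19, chr1:23699122-23700480, 1359 bp) and held 1, 2 and 0 counts in the controls against 38, 19 and 20 counts in the knockdown libraries. Every knockdown library was above every control, with a log2 fold change of 4.58 (SE 0.83, edgeR adjusted p = 0.00470), and the ratio of summed counts was 26.03 with an exact 95% interval of 8.58 to 129 that covers counting error only. The region passed the filter on low counts only through its knockdown counts, and with no filter edgeR's adjusted p was 0.0164. Without knockdown replicate 1 the adjusted p was 0.299, and with limma-voom it was 0.472. Over all settings that gave an adjusted p it ran from 0.00111 to 0.472. H3K4me3 was near 0 here in both groups (0.729 and 0.408 CPM), and H3K4me1 averaged 11.4 ± 2.24 CPM in the controls and 2.29 ± 1.19 CPM after knockdown (SD, n = 3 each; edgeR adjusted p = 0.0953). On the other side of the gene, the region 447 bp away had 23.0 CPM of H3K9me3 in control and 13.109 CPM in knockdown, which did not pass (edgeR adjusted p = 0.575). The nearest H3K4me3-rich neighbour, 14221 bp away, had 7.40 and 8.47 CPM of H3K9me3 and 99.2 and 96.4 CPM of H3K4me3 (edgeR adjusted p = 0.956 for H3K9me3).

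**Figure D1:**
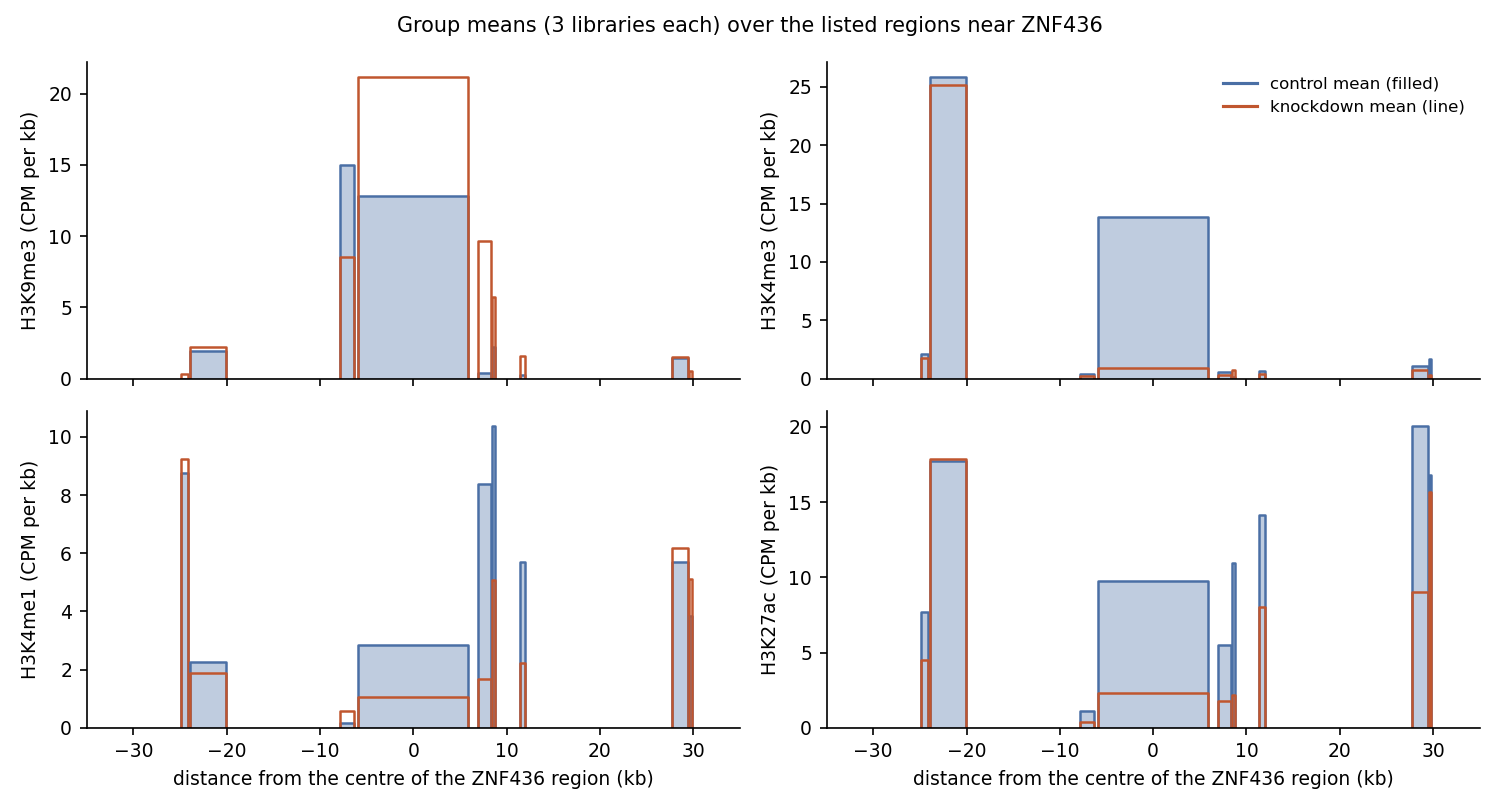
H3K9me3, H3K4me3, H3K4me1 and H3K27ac in CPM per kb over the listed regions within 35 kb of the ZNF436 region; filled blue boxes are the mean of 3 control libraries and orange outlines the mean of 3 knockdown libraries. The H3K9me3 outline lies above the control box over the gene and in the next region upstream, while over the gene, summed over the whole region, H3K4me3 falls from 162 to 10.4 CPM and H3K27ac from 115 to 27.5 CPM.

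Promoters are printed here for the genes whose start lies in a named region that was higher in knockdown, so that their content of CG, the dinucleotide that is methylated in silenced DNA, can be seen. They run from 250 bases before to 50 bases after the gene's start and come from RefSeq in the build GRCh38.p14, not the hg19 build of the counted regions. Capitals mark CG, which reads the same on both strands. Where RefSeq lists several starts, the entry with the most CG is printed.
ZNF436, second RefSeq entry: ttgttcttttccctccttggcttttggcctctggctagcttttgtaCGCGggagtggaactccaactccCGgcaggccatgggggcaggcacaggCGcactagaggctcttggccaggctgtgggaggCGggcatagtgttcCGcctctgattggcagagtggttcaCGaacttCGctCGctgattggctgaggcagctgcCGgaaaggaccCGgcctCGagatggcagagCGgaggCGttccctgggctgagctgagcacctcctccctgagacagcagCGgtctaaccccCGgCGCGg
SLC35C1, second RefSeq entry: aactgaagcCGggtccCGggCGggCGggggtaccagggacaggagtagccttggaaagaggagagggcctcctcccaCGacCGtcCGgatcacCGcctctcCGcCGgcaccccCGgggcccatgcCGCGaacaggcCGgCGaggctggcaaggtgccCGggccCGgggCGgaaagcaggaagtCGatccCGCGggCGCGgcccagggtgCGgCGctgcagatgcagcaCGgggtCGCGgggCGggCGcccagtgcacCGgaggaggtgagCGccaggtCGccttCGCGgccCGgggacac
RBM38: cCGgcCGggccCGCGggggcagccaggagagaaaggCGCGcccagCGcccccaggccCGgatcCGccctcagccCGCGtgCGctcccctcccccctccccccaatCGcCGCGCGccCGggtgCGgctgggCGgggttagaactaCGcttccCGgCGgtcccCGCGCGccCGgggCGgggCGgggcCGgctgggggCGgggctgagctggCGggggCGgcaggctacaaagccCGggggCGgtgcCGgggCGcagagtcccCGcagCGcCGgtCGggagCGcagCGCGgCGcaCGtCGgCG
The ZNF436 stretch (chr1:23368286-23368585, minus strand) holds 18 CG, a number that 44.5% of the 35116 promoters in the table reach or exceed, with a median of 14. SLC35C1 (chr11:45804156-45804455, plus strand) holds 36, reached by 12.7% of promoters, and RBM38 (chr20:57391146-57391445, plus strand) holds 47, reached by 2.41%. The entries not printed hold fewer: the first of ZNF436 has 4 CG, which 75.5% of promoters reach, and the other two of SLC35C1 have 17 and 24. The antisense gene ZNF436-AS1 has entries with 29 and 28. These are descriptions of the sequence and were not tested against H3K9me3.

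Across the genome, H3K9me3 at single regions changed little that the test could call. After the filter on low counts, 30565 regions (19.9%, holding 85.2% of all counts) were tested, and 2 were called higher (0.00654% of those tested) and 1 lower (0.00327%) by edgeR's quasi-likelihood test at an adjusted p under 0.05. Of the 2 called higher, the region upstream of ZNF436 is described above. At an unadjusted p under 0.05, 1220 regions were higher (3.99%) and 1321 lower (4.32%). The higher ones had a median control level of 5.59 CPM and a median log2 fold change of 1.28, and the lower ones 32.5 CPM and -0.79. The control level is 1 side of the difference that chose these regions, so part of this contrast comes from the choice. In a simulation on the same means and spread, 13 of 81 regions changed by a log2 fold of 1 and 58 of 108 changed by 2 were recovered, so a doubling at a single region was mostly not detectable. Higher and lower calls numbered 4 and 1 without control replicate 1, 12 and 8 without control replicate 2, and 8 and 7 without control replicate 3. They numbered 2 and 2 without knockdown replicate 1, 5 and 5 without knockdown replicate 2, and 5 and 3 without knockdown replicate 3, while DESeq2 called 3 higher and 46 lower. Regions past the unadjusted threshold that lay within 10 kb of each other mostly agreed in direction: 41 of 47 neighbours of a higher region were higher, and 66 of 72 neighbours of a lower region were lower. Such neighbours were chosen from the same 6 libraries and share their variation, so the agreement is a description and was not tested.

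The region called lower lay inside UGGT2, which encodes a glucosyltransferase of glycoprotein folding in the endoplasmic reticulum (hg19, chr13:96490704-96493251, 2548 bp). H3K9me3 there was 31.6, 40.8 and 29.0 CPM in the controls and 4.01, 9.21 and 5.93 CPM in the knockdown libraries. The groups did not overlap, the log2 fold change was -2.38 (SE 0.39), and edgeR's adjusted p was 0.000496. No H3K4me3 read was counted in this region in any of the 6 libraries of that mark. The next region, 4476 bp away, had 25.6 CPM in control and 24.7 CPM in knockdown. Within 100 kb, 9 regions were tested, that in UGGT2 included, and 7 of them had negative log2 fold changes. Of all tested regions outside the zinc finger clusters, 48.8% were negative. The 2 with an unadjusted edgeR p under 0.05 were the UGGT2 region itself, named for being lower, and the DNAJC3 region described next. Of all tested regions, 4.32% were lower at that threshold. A region 97577 bp to the other side, in DNAJC3, a co-chaperone gene of the endoplasmic reticulum, was also lower, at 24.0, 20.4 and 10.8 CPM against 3.43, 3.88 and 4.66 CPM, with a log2 fold change of -2.17 that did not pass (edgeR adjusted p = 0.133).

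**Figure D2:**
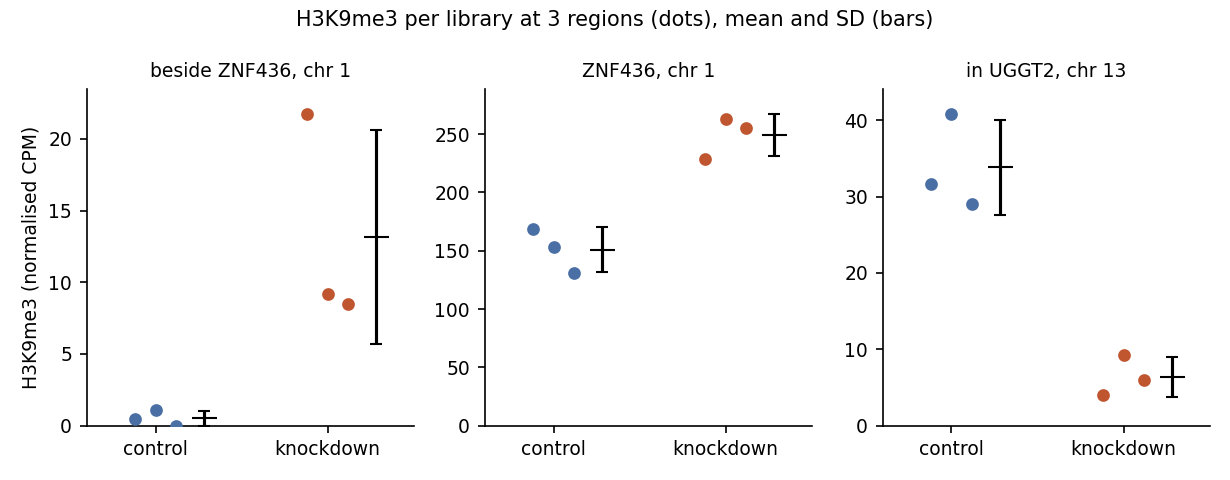
H3K9me3 in CPM per library (dots) with the mean and SD of 3 libraries (bars) beside ZNF436, over ZNF436 and in UGGT2. The groups do not overlap in any of the 3 panels, which for all but ZNF436 was a condition of naming the region; ZNF436 itself did not pass the test (edgeR adjusted p = 0.0648).

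The 8 further regions named as higher did not pass, with edgeR adjusted p between 0.0579 and 0.184, and their values are given as such. All regions named by p were also chosen for groups that do not overlap, so the lack of overlap in them is part of the choice. In SLC35C1, the gene of the Golgi GDP-fucose transporter (chr11:45825292-45828099, with the gene's start), H3K9me3 was 0.959, 2.15 and 1.73 CPM in the controls and 18.3, 11.6 and 7.20 CPM in knockdown, while H3K4me3 was 110 ± 2.10 and 101 ± 8.33 CPM (SD, n = 3 each). RBM38, which encodes an RNA-binding protein (chr20:55964865-55978365, with the gene's start), had 6.67 ± 1.74 CPM in control and 23.5 ± 5.46 CPM in knockdown (SD, n = 3 each). There H3K4me3 averaged 69.5 and 91.6 CPM and H3K27ac 112 and 183 CPM, without overlap, but neither passed (edgeR adjusted p = 0.203 and 0.181). In TFAP2A, the gene of the transcription factor AP-2 alpha (chr6:10408516-10418417), the levels were 11.02, 6.44 and 8.66 CPM against 26.3, 30.1 and 26.3 CPM. A region overlapping NES, which encodes the intermediate filament protein nestin (chr1:156629945-156641372), had 5.34 and 20.1 CPM, and H3K27ac of 217 and 347 CPM (edgeR adjusted p = 0.261). An H3K4me3-rich region on chromosome 16 that was not placed at a gene (chr16:85586461-85592324) held 2 counts in all controls and 56 in the knockdown libraries. The ratio was 28.4, with an exact 95% interval of 7.50 to 240.3 that covers counting error only (edgeR adjusted p = 0.133). H3K4me3 there was 117 ± 8.76 and 114 ± 7.62 CPM (SD, n = 3 each). The remaining 3 were chr1:16949693-16954510 (log2 fold change 1.86), chr7:51922464-51923709 (2.10) and a region in TPTE, a testis-expressed gene related to phosphatases (chr21:10908494-10911856, 1.07). Of the 9 regions named here as higher, 6 were H3K4me3-rich, that is, in the top 20% of all regions by H3K4me3 per kb, against 11.4% of the tested regions. That share is not an even base. The SLC35C1 and chromosome 16 regions, for example, passed the filter on low counts only through their knockdown counts. Of the 1220 tested regions higher at an unadjusted edgeR p under 0.05, 339 were H3K4me3-rich. H3K4me3 itself passed edgeR's test in 0 of the 7 that could be tested.

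The 9 further regions named as lower did not pass either, with edgeR adjusted p between 0.119 and 0.175. Zinc finger genes stood at 2 of them. The region overlapping ZNF510 (chr9:99513376-99531004, 17629 bp) had 400, 372 and 447 CPM in the controls and 247, 257 and 290 CPM in knockdown, and the region at ZNF564 (chr19:12631101-12648360, 17260 bp) had 270, 279 and 290 CPM against 177, 188 and 189 CPM. In both, the 3 knockdown libraries lay below the 3 controls, with log2 fold changes of -0.62 and -0.60. In STK3, a kinase gene of the Hippo pathway (chr8:99753172-99758887), the log2 fold change was -1.06, and in RPS6KA5, the gene of the kinase MSK1 (chr14:91418820-91421819), it was -1.19. The others were chr8:94675933-94678476 (-0.95), chr8:12406802-12418999 (-0.64), chr15:35646901-35653134 (-0.83) and chr2:106856541-106858980 (-1.55). Of the 10 regions named as lower, 9 were poor in the other marks, as were 86.3% of all tested regions. Their control levels, between 18.4 and 406 CPM, reached above the range of the higher group, between 0.320 and 26.5 CPM. Here too, part of the contrast comes from choosing regions by the difference from control.

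Zinc finger gene clusters held a lower share of the counts in each knockdown library than in any control. The limits of the 21 clusters were set by hand from known hg19 positions, and together they hold 2694 regions (1.76% of all). Their share of H3K9me3 counts was 4.64%, 4.27% and 4.17% in the controls and 3.69%, 3.56% and 3.92% in the knockdown libraries. The groups did not overlap, with means of 4.36 ± 0.246% and 3.73 ± 0.181% (SD, n = 3 each), and the two-sided exact permutation p was 0.1, the smallest that 3 against 3 libraries allow. Without the 100 regions with the most counts the shares were 6.33%, 5.96% and 6.18% against 5.23%, 5.01% and 5.73%, again with no overlap. Within the clusters, the 2187 regions poor in the other marks summed to 47382 ± 822 CPM in control and 42728 ± 2528 CPM in knockdown (SD, n = 3 each). The 462 H3K4me3-rich regions in the clusters had 2199 ± 524 and 2404 ± 146 CPM (SD, n = 3 each), which overlapped.

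Summed over each cluster, H3K9me3 had a negative log2 fold change in all 21 clusters in this fit, with a median of -0.26 and a range of -0.43 to -0.013. Over 2879 bins of 1 Mb in the rest of the genome the median was 0.012. Those bins were less marked, with a median control level of 154 CPM against 1338 CPM in the clusters. They held a median of 2 regions among the densest 5%, against 10 in the clusters. Whether the clusters differed from bins of like density was not tested. The fits of clusters and bins, 2900 domains in all, called 116 higher (4.0%) and 53 lower (1.83%) by edgeR at an adjusted p under 0.05. Of the clusters, 4 of 21 fell: 16p13.3 from 1312 to 974 CPM (log2 fold change -0.43, SE 0.12, edgeR adjusted p = 0.0233), 3p21.31 from 1068 to 823 CPM (-0.38, adjusted p = 0.0414), 19q13.2 from 309 to 242 CPM (-0.36, adjusted p = 0.0426) and 1q44 from 1239 to 953 CPM (-0.38, adjusted p = 0.0463). In 14 of the 21 clusters the knockdown libraries all lay below the controls, as they did in 328 of all domains (11.3%). The largest cluster by regions, 19p12 with 651 regions, had 5716, 5650 and 6366 CPM in the controls and 5136, 5145 and 6155 CPM in knockdown, which overlapped (log2 fold change -0.11). No cluster was called lower without control replicate 1, knockdown replicate 1 or knockdown replicate 2, nor with 100 kb bins or with only regions poor in the other marks, and 6 were without control replicate 2 or control replicate 3. The sign at 7q11.21 turned positive with loess offsets, without control replicate 3, knockdown replicate 1 or knockdown replicate 2, and with only regions poor in the other marks; that at 10p11.21 turned positive with loess offsets.

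**Figure D3:**
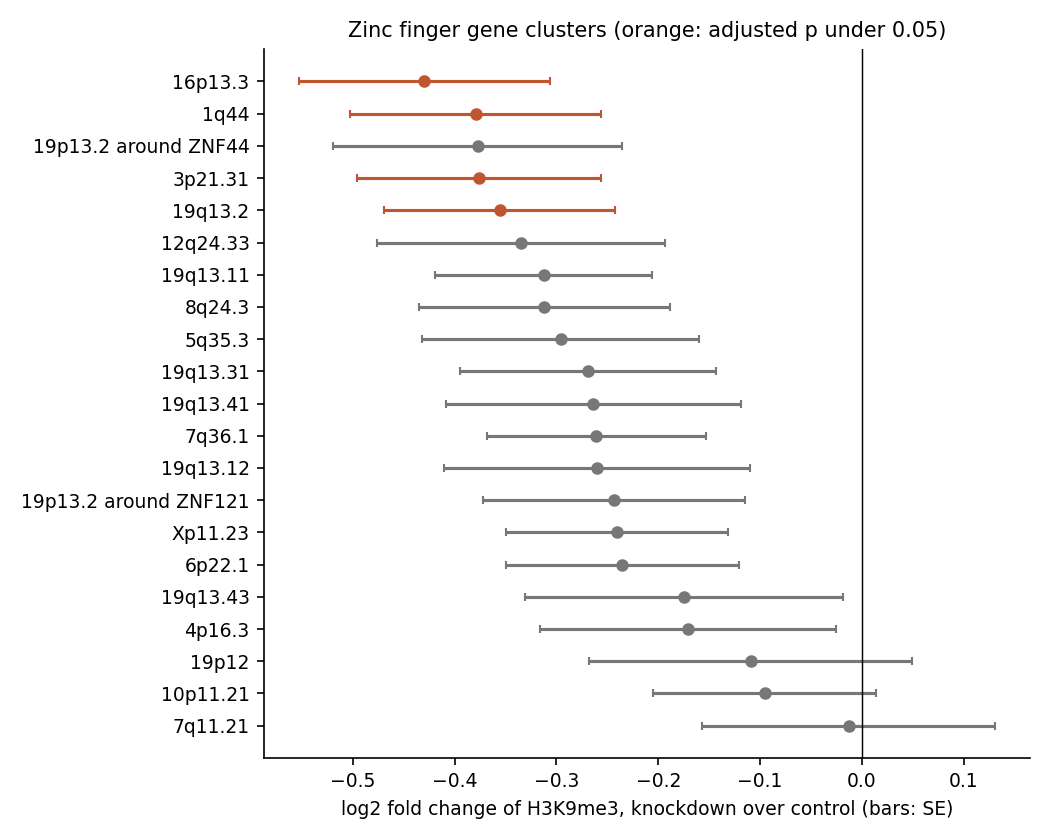
Log2 fold change of summed H3K9me3 counts in each of the 21 zinc finger gene clusters, knockdown over control, with its SE (bars); orange marks the 4 clusters with an edgeR adjusted p under 0.05. All points lie below 0, between -0.43 at 16p13.3 and -0.013 at 7q11.21, which like 10p11.21 turns positive under loess offsets.

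Outside the clusters, the bins called higher held many H3K4me3-rich regions, a class set by H3K4me3 per kb and not by annotated promoters. The 116 bins called higher had a median of 29 H3K4me3-rich regions, against 7 over all bins and 8 in the 49 bins called lower. They also held more regions of any kind, with a median of 82.5 against 47 over all bins. The median percent of regions that were H3K4me3-rich was 35.4% against 14.5%. Their H3K9me3 was weaker, with a median control level of 102 CPM against 154 CPM over all bins. They held a median of 0 regions among the densest 5%, against 2. Ordered by the number of H3K4me3-rich regions and cut into 5 classes of like size, the top class (16 to 118 H3K4me3-rich regions) held 92 of the 116, or 15.9% of its 578 bins. In the other classes between 0.350% and 1.56% were called higher. The median log2 fold change was 0.13 in the top class and between -0.032 and 0.00065 in the others. Spearman's rho over the 2879 bins, which share their libraries, was 0.19 between the log2 fold change and the number of H3K4me3-rich regions and -0.36 between the fold change and the percent of regions dense in H3K9me3, given as a description. The 5 bins with the smallest p among the higher ones were chr1 3 to 4 Mb (149 ± 29.8 and 249 ± 33.6 CPM, SD, n = 3 each; log2 fold change 0.74), chr19 39 to 40 Mb (0.71), chr17 79 to 80 Mb (0.60), chr19 1 to 2 Mb (0.59) and chr9 130 to 131 Mb (0.69). Between 25.2% and 80.8% of their regions were H3K4me3-rich. Their knockdown libraries all lay above their controls.

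In the 116 bins called higher, which were chosen by this difference, the sum over H3K4me3-rich regions was 7000 ± 1353 CPM in the controls and 11789 ± 1606 CPM after knockdown, and that over regions poor in the other marks 6793 ± 551 and 9086 ± 672 CPM (SD, n = 3 each). When only regions poor in the other marks were counted, an alternative chosen after seeing the data, 12 of the 116 bins were called higher and 107 kept a positive sign. Their median log2 fold change was 0.45 with those regions alone and 0.56 with all regions. In all, 14 domains were called higher and 14 lower with the poor regions alone. The count of higher domains also fell to 18 without control replicate 1, 24 without knockdown replicate 2 and 58 without knockdown replicate 1, and rose to 187 without control replicate 2. Those libraries also differed in how widely their reads were spread: the least dense 50% of regions by H3K9me3 per kb held 4.67%, 6.37% and 4.38% of the counts in controls and 7.01%, 8.60% and 6.67% in knockdown. The part of this spread in the bins' differences was not tested.

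**Figure D4:**
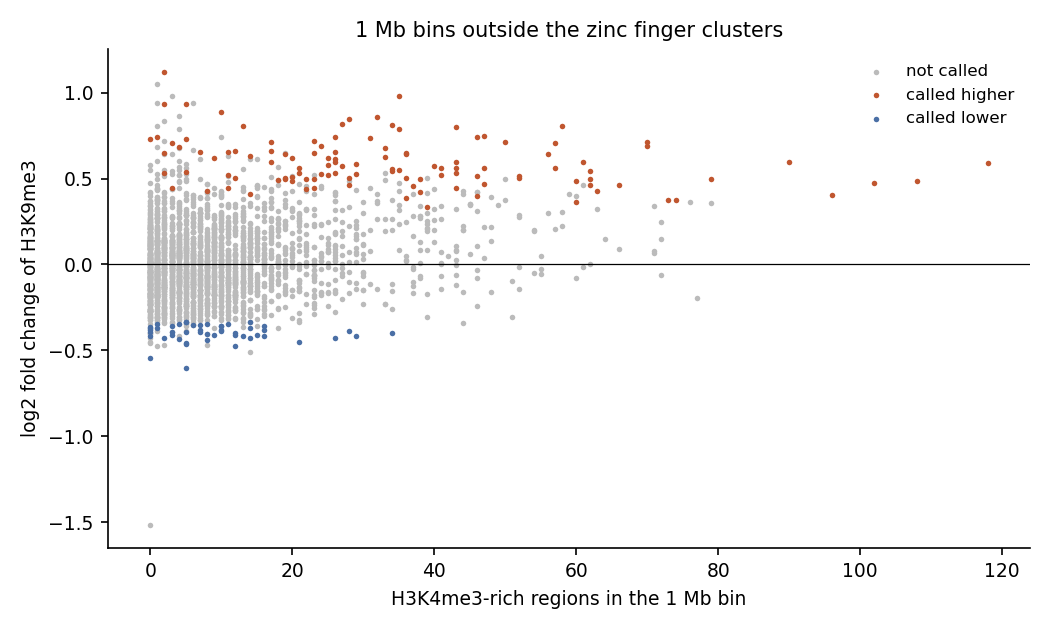
Log2 fold change of summed H3K9me3 counts in 2879 bins of 1 Mb against the number of H3K4me3-rich regions in the bin; orange points were called higher and blue points lower by edgeR. Of the 116 orange points, 92 lie among the bins with 16 or more H3K4me3-rich regions, and the 49 blue points are spread over bins with few and many, with a median of 8.

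The bins called lower were more strongly marked than the rest, with a median control level of 402 CPM against 154 CPM over all bins. In knockdown the medians were 308 and 159 CPM. The 5 with the smallest p were chr5 65 to 66 Mb (433 ± 6.48 and 314 ± 7.54 CPM, SD, n = 3 each; log2 fold change -0.46), chr3 196 to 197 Mb (-0.45), chr12 84 to 85 Mb (-0.43), chr15 82 to 83 Mb (-0.60) and chr18 32 to 33 Mb (-0.43). In the 49 bins, which again were chosen by this difference, the sum over regions poor in the other marks was 24042 ± 1317 CPM in the controls and 19030 ± 464 CPM after knockdown, while H3K4me3-rich regions there had 980 ± 252 and 1137 ± 123 CPM (SD, n = 3 each). With only the poor regions counted, 11 of the 49 were called lower and all 49 kept their sign, with a median log2 fold change of -0.35 against -0.39 with all regions. Counts of lower domains fell to 3 without control replicate 1, 4 without knockdown replicate 1 and 6 without knockdown replicate 2, and were 120 without control replicate 2, 80 without control replicate 3 and 35 without knockdown replicate 3.

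The same split showed in the shares of all counts by chromatin class. H3K4me3-rich regions held 29.5%, 33.0% and 33.9% of the H3K9me3 counts in controls and 34.7%, 34.7% and 35.1% in knockdown (two-sided exact permutation p = 0.1). The difference of 2.69 percentage points became 1.39 without control replicate 1. That class includes regions with very high counts, such as the one beside the centromere of chromosome 1. Without the 100 regions with the most counts the shares were 8.83%, 11.5% and 8.31% against 12.3%, 12.8% and 10.96%. Control replicate 2 then lay within the knockdown range (exact permutation p = 0.2). Regions rich in H3K4me1 or H3K27ac but not H3K4me3 held 2.77 ± 0.580% in control and 3.90 ± 0.539% in knockdown (SD, n = 3 each), or 1.41 times as much, but their lowest knockdown share of 3.43% was barely above the highest control share of 3.42%. Regions poor in all 3 other marks held 67.9%, 63.6% and 63.8% against 61.5%, 60.8% and 61.5%.

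**Figure D5:**
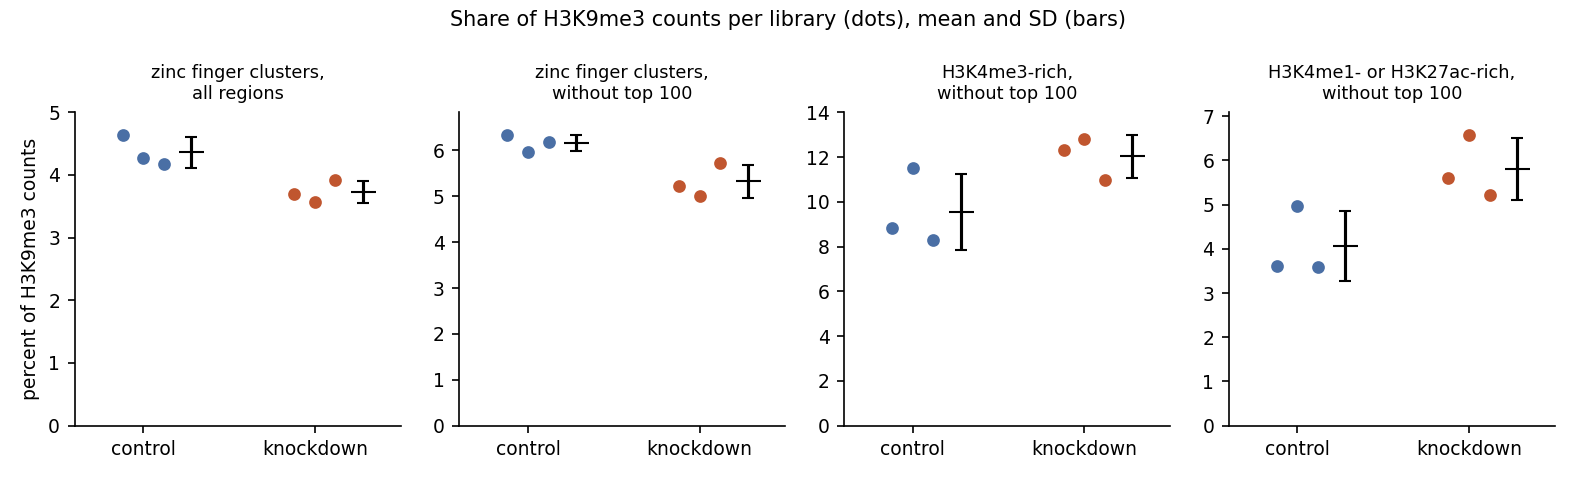
Percent of H3K9me3 counts per library (dots) with the mean and SD of 3 libraries (bars) in zinc finger clusters with all regions counted, and in zinc finger clusters, H3K4me3-rich and H3K4me1- or H3K27ac-rich regions without the 100 regions with the most counts. The groups do not overlap for the clusters or for the H3K4me1- or H3K27ac-rich regions, and for the H3K4me3-rich regions the control replicate 2 point at 11.5% lies above the lowest knockdown point at 10.96%.

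By signal level, the knockdown shares were lower in regions ranked from 1 to 20% by density. In the densest 1% the direction depended on a few regions. The densest 1% of regions held 39.1 ± 2.93% of the counts in control and 39.4 ± 1.49% in knockdown (SD, n = 3 each; exact permutation p = 0.8). Without the 100 regions with the most counts the direction turned, to 11.5 ± 0.489% in control and 10.6 ± 0.414% in knockdown (SD, n = 3 each; exact permutation p = 0.2). Of the 1317 tested regions in this class, 108 were lower and 45 higher at an unadjusted p under 0.05. The next classes, from 1 to 5% and from 5 to 20%, held 15.6 ± 1.02% and 26.9 ± 1.47% in control against 13.8 ± 0.465% and 24.7 ± 0.605% in knockdown (SD, n = 3 each), and the groups did not overlap in either. The least dense 50% held 5.14 ± 1.07% in control and 7.43 ± 1.03% in knockdown (SD, n = 3 each), also without overlap. The exact permutation p was 0.1 in each of these 3 classes, and 0.167 after Benjamini-Hochberg adjustment over the 5 classes of signal level. Density was taken as the mean over all 6 libraries, so it favoured neither group.

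Region width separated the groups less. Regions of 5 kb or more held 40.8%, 41.3% and 45.5% of the counts in controls and 41.6%, 41.2% and 43.97% in knockdown (exact permutation p = 0.9), and the groups overlapped in all 6 width classes. Without the 100 regions with the most counts the shares were 19.7 ± 0.833% and 18.1 ± 0.698% (SD, n = 3 each; exact permutation p = 0.2). Wide regions passed an unadjusted p under 0.05 most often, and they also hold more counts per region. Of the 378 regions of 10 kb or more, 20.4% were higher and 18.0% lower, against 1.73% and 0.979% of the tested regions under 0.5 kb.

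Among chromosomes, differences in share were small. Chromosome 19 held 6.28%, 6.36% and 6.43% of the counts in controls and 6.40%, 6.28% and 6.51% in knockdown (exact permutation p = 0.8). Of its 49 bins outside the zinc finger clusters, 12 were called higher (24.5%) and none lower, with a median log2 fold change of 0.25. Groups did not overlap on chromosomes 1, 17 and X, which were higher in knockdown, nor on 2, 6 and 8, which were lower. The exact permutation p of 0.1 became 0.383 after adjustment over 23 chromosomes. Chromosome 1 averaged 10.88% in controls and 11.33% in knockdown, and it includes the region beside its centromere. That region alone held 4.10%, 4.42% and 4.76% in controls and 4.86%, 4.84% and 4.90% in knockdown. The whole chromosome held 10.83%, 10.93% and 10.90% in controls and 11.38%, 11.36% and 11.25% in knockdown. With that region's share taken away from these values, the groups overlapped. The X chromosome held 2.98%, 3.04% and 3.11% in controls and 3.18%, 3.19% and 3.26% in knockdown, and 8 of its 152 bins were called higher (5.26%, beside 4.03% of all bins) and none lower. It had 5.98 H3K4me3-rich regions per bin on average, and chromosome 19 had 35.8. Its median log2 fold change was 0.11 over all regions and 0.20 with only regions poor in the other marks, beside 0.25 and 0.19 on chromosome 19. Chromosome 2 had -0.066 and -0.054, with none of its 241 bins called higher and 2 called lower.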

How the data were processed

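CUT&Tag counts of H3K9me3 in 3 control and 3 knockdown libraries were used as the authors deposited them: raw read counts per region over 153244 regions shared by all libraries, not normalized. Per the submitters' processing notes the build was hg19 and the tools were deepTools 3.5.4, Bowtie2 2.4.5 and bedtools 2.30.0, with no role given for any. Region calling and read filters are not described there. Between 59.9% and 65.5% of counts above 0 were even in each library, so mates may have been counted separately and counting intervals may be too narrow.

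Counts were tested with edgeR 4.0.16 (R 4.3.3): filterByExpr, TMM scaling, and the quasi-likelihood test with robust estimation, group as the only term, and Benjamini-Hochberg adjustment over all features tested, called under 0.05. Libraries of a group differed by more than counting noise (chi-square over degrees of freedom between 3.69 and 4.95), and all were kept as separate replicates. Domains are sums over 21 zinc finger gene clusters and, elsewhere, 1 Mb bins, by region midpoint. The biological coefficient of variation was 32.2% for regions and 11.3% for domains. Shares of counts were compared by a two-sided exact permutation test over libraries. Regions in the top 20% by CPM per kb of H3K4me3, or else of H3K4me1 or H3K27ac, over all 6 libraries of that mark, were called rich in it, and the rest poor.

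Regions were named in each direction by smallest p among those with groups that do not overlap, 10 per direction, filled with regions that did not pass; the ZNF436 region, all clusters and 5 bins per direction were added. Among the higher regions, 1 is not reported here. The regions, lists and clusters were chosen with earlier results of these data known. Gene names come from general knowledge of hg19 positions, not from an annotation of that build; the lengths of 14 of 17 genes were within 5% of RefSeq's in GRCh38.p14, and STK3, ZNF510 and RPS6KA5 differed by more. The steps were tested on simulated counts. Alternatives were RLE factors, library totals, limma-voom (limma 3.58.1), DESeq2 1.42.0, loess offsets (span 0.3), a strict filter (30 reads) or none, halved counts, 100 kb bins, a replicate block, other class limits and leaving out each library.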

Additional observations from a re-analysis of the deposited data

How the results depend on the processing

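Counts of called regions were small under every setting run. Higher regions, 2 as reported, numbered 4 with loess offsets, 1 with the strict filter, 1 with only regions poor in the other marks (chosen after seeing the data) and 2 to 12 with 1 library left out. Lower regions, 1 as reported, numbered 2 with library totals alone, 46 with DESeq2, 7 with limma-voom, 3 with the replicate block and 1 to 8 with 1 library left out. DESeq2 gave no adjusted p at the UGGT2 and upstream ZNF436 regions, which are not counted as lost. No region named in the text changed sign under any setting that gave it a value.

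Higher domains, 116 as reported, numbered 52 with library totals alone, 55 with loess offsets, 16 with 100 kb bins, 14 with only regions poor in the other marks and 18 to 187 with 1 library left out. Lower domains, 53 as reported, numbered 25, 12, 8 and 14 under the same 4 settings and 3 to 120 with 1 library left out. The cause was not tested. In the simulation of domains, 10 unchanged domains of 2900 were called.

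Same-numbered libraries did not deviate together (correlations -0.015, 0.044 and 0.057), so the numbers were not taken to pair them. The replicate block gave 137 lower domains, of which 14 were zinc finger clusters, and 169 higher domains.

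The shares in zinc finger clusters and in H3K4me3-rich regions kept their sign throughout, at -0.732 to -0.495 and 1.39 to 3.57 percentage points with 1 library left out. With cluster limits widened by 100 kb the cluster difference was -0.633, beside -0.634 as reported. The knockdown minus control difference in percentage points changed sign for regions of 5 kb or more (-0.274 as reported, -1.63 without the 100 highest regions, -1.15 to 1.205 with 1 library left out), for chromosome 19 (0.0342 as reported, -0.229 without the 100 highest regions, -0.0226 to 0.0926 with 1 library left out) and for the densest regions (0.241 as reported, -1.54 for the densest 5%, -0.920 without the 100 highest regions, -0.907 to 1.89 with 1 library left out).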
